A study of Mus musculus with 6 samples.

Results

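Glycine tRNA fragments from the 5′ end were described in the small RNA of mature mouse sperm. The members were all rows of the tRNA-derived small RNA (tsRNA) table whose names begin with tRNA-Gly- and end with _5_end. There were 4 of them among 124 rows, tRNA-Gly-GCC_5_end, tRNA-Gly-CCC_5_end, tRNA-Gly-TCC_5_end and tRNA-Gly-ACC_5_end, called GCC, CCC, TCC and ACC after their anticodons. They were chosen by name and not by their values. The cells were taken from the cauda epididymis, where mature sperm are stored, of male C57BL/6 mice aged 8 weeks (the protocol gives the background as C57BL/6J). There were 3 samples of normal mice and 3 samples of mice with a depressed state induced by stress, called normal and stress here. The labels used here do not give the stress procedure, and they do not say whether a sample is 1 animal or a pool. The p-values thus rest on variation among these samples alone, part of which may be technical. In limma that variation is pooled over the tested rows. The comparison asks whether the state of the male goes with a different load of these fragments in sperm.

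A tRNA carries an amino acid to the ribosome and reads the codon with its anticodon loop. Cleavage in or near that loop leaves a 5′ fragment and a 3′ fragment, and mature tRNAs end in an added CCA. Mature sperm are rich in 5′ fragments, and those of tRNA-Gly-GCC and tRNA-Glu-CTC are known as leading species. Sperm gain many of them during passage through the epididymis, in part from vesicles shed by its lining, and the tRNA-Gly-GCC fragment is known for repressing genes tied to the endogenous retrovirus MERVL in early embryos. Genes for tRNA-Gly-GCC and some genes for tRNA-Gly-CCC have near-identical 5′ sequences, so short reads can match both.

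Values are RPM, reads per 1000000 of the tsRNA table itself, so each is a share of that table and says nothing about the amount per sperm. In bulk RNA, fewer cells of a type and less RNA per cell cannot be told apart. The depth was estimated at 1149648 to 2756214 tsRNA reads per sample. Normal replicate 3 had the lowest estimate, with 2.67 miRNA reads per estimated tsRNA read against 0.367 to 0.835 in the other samples. The estimates for that sample and the 3 stress replicates are uncertain by a factor of 2. A step 2 times smaller made 28 values whole against 27 in normal replicate 3 and 30 against 26 in stress replicate 1. In stress replicates 2 and 3 it made 28 whole against 28. Normal replicate 3 would then hold 2299296 reads, with 1.33 miRNA reads per tsRNA read, and would no longer be the lowest if the other estimates stand. At the smaller step the stress replicates would hold 3649545 to 5512427 reads, with 0.183 to 0.417 miRNA reads per tsRNA read. Of 8 male germ cell miRNAs all 8 were in the miRNA table, with a summed level of 4218 to 6075 CPM in normal and 4208 to 5112 CPM in stress samples (counts per 1000000 miRNA reads), and none was at 0. The 5 epithelial miRNAs, which mark the epididymal lining, were all present at a summed 11839 to 16970 CPM in normal and 28344 to 31395 CPM in stress samples. Of the 2 leukocyte markers miR-223-3p was at 0 in 1 sample (6.29 to 23.1 CPM summed in normal, 23.8 to 40.7 CPM in stress), and of the 2 red blood cell markers miR-144-3p was at 0 in 3 samples (51.8 to 87.7 CPM summed in normal, 18.8 to 149.1 CPM in stress). The epithelial sums did not overlap between the groups. The leukocyte sums stood apart by a narrow margin alone (23.1 against 23.8 CPM), and the other sums overlapped. How many of all miRNAs separate the groups without overlap was not counted, so no difference in cell content is drawn from these sums. The part of these differences in the values below was not tested.

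The GCC fragment (tRNA-Gly-GCC_5_end) was the main glycine fragment in all 6 samples. It stood at 276468, 254556 and 272076 RPM in normal replicates 1 to 3 and at 265607, 290744 and 265123 RPM in stress replicates 1 to 3. Normal replicate 2 was the lowest sample and stress replicate 2 the highest, and the groups overlapped. It was the second most abundant of the 124 rows in every sample. The mean was 267700 ± 11593 RPM (SD, n = 3) in normal and 273825 ± 14655 RPM in stress sperm.

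The CCC fragment (tRNA-Gly-CCC_5_end) came next among the glycine fragments, at rank 4 of the whole table in every sample. It stood at 45743, 42659 and 44192 RPM in the normal and at 44143, 47817 and 44276 RPM in the stress replicates. The same pair of samples, normal replicate 2 and stress replicate 2, held the lowest and highest values. The group means were 44198 ± 1542 RPM and 45412 ± 2084 RPM (SD, n = 3 each).

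The TCC and ACC fragments were rare. TCC stood at 226.6, 89.8 and 165.3 RPM in the normal replicates and at 217.0, 154.5 and 167.2 RPM in the stress replicates, with normal replicates holding both extremes. ACC stood at 47.5, 27.6 and 164.3 RPM in the normal replicates and at 104.0, 123.3 and 89.6 RPM in the stress replicates. Normal replicates 1 and 2 lay below all stress samples for ACC, and normal replicate 3 lay above them. The normal group was therefore much more spread for ACC (79.8 ± 73.9 RPM, SD, n = 3) than the stress group (105.7 ± 16.9 RPM). The least deep ACC value, in normal replicate 2, rests on an estimated 64.5 reads.

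**Figure D1:**
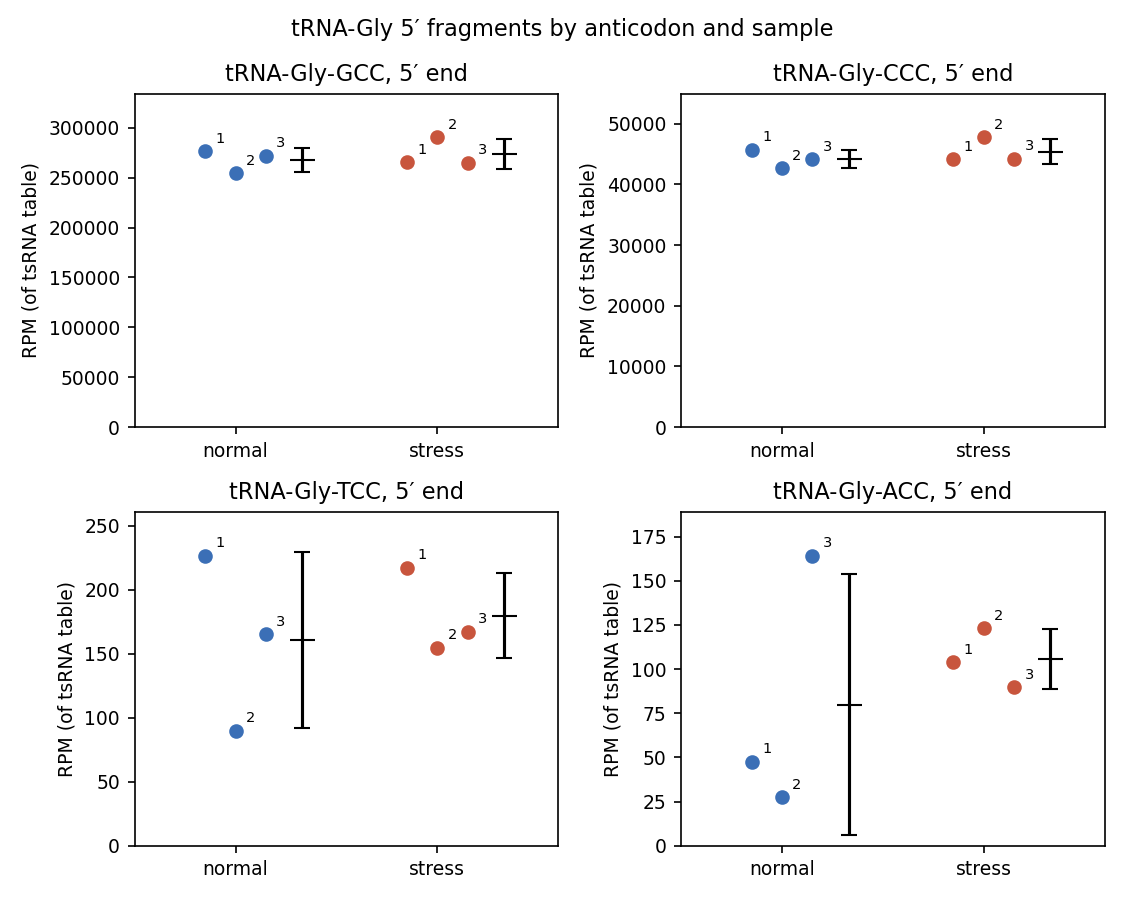
RPM of the 4 glycine 5′ fragments (vertical axes, linear and starting at 0, a scale for each anticodon) in 3 normal and 3 stress samples; points carry the replicate number, and the bar beside them is the mean with its SD. GCC and CCC show tight points with overlapping groups, while for ACC normal replicate 3, at 164.3 RPM, lies far above the other normal replicates.

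No glycine 5′ fragment differed between stress and normal sperm past the threshold. In limma on log2(RPM + 1), with Benjamini-Hochberg adjustment over the 87 tested rows, 0 of 4 passed an adjusted p of 0.05. The background in the whole table was 0 of 87 rows (0%), and 8 rows (9.2%) had an unadjusted p under 0.05, none of them a glycine 5′ fragment. GCC had a log2 fold change, stress minus normal, of 0.032 ± 0.065 (SE; limma adjusted p = 0.84), with a 95% interval of −0.095 to 0.16. For CCC it was 0.039 ± 0.13 (adjusted p = 0.90 in limma), with an interval of −0.22 to 0.30. TCC was at 0.24 ± 0.66 (adjusted p = 0.85 in limma; interval −1.04 to 1.53). ACC was at 0.79 ± 0.71 (adjusted p = 0.68 in limma; interval −0.60 to 2.18).

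The estimates for the rare fragments therefore leave room for changes of more than 1 on the log2 scale, whereas those for GCC and CCC are narrow. The narrow intervals rest on the fitted trend of spread against abundance, at an end of the abundance range where few rows lie. In the fit that gave these intervals the prior degrees of freedom in limma were infinite, so a row's own spread had no weight. That own spread was also small, with an SD of log2(RPM + 1) over the 6 samples of 0.065 for GCC and 0.056 for CCC. The median over the 44 tested 5′ rows was 0.64. Without the trend, where the same prior spread holds at every abundance, the interval of GCC was −0.70 to 0.77 and that of CCC −0.69 to 0.77. Without normal replicate 3, ACC stood at 1.51 ± 0.60 on the log2 scale, higher in 3 of 3 stress samples than in the 2 normal samples left, and it still did not pass (adjusted p = 0.086 in limma). In that comparison 28 of the 87 rows (32.2%) lay higher in every stress sample than in both normal samples, 21 rows (24.1%) had an unadjusted p under 0.05, 2 rows (2.3%) passed, and the median of all rows was 0.36, so the table as a whole moved with that sample. Without normal replicate 2, ACC was at 0.24 and TCC at −0.12. In none of the 4 did the groups stand apart without overlap, against 7 of 87 rows (8.05%) in the table. The 4 fragments had a median log2 fold change of 0.14, beside −0.14 over the 44 tested 5′ rows of all tRNAs and 0.073 over all 87 rows. These medians depend on single samples: without normal replicate 2 they were 0.0049, −0.44 and −0.12, without normal replicate 3 they were 0.18, 0.099 and 0.36, and without normal replicate 1 the glycine median was 0.30.

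**Figure D2:**
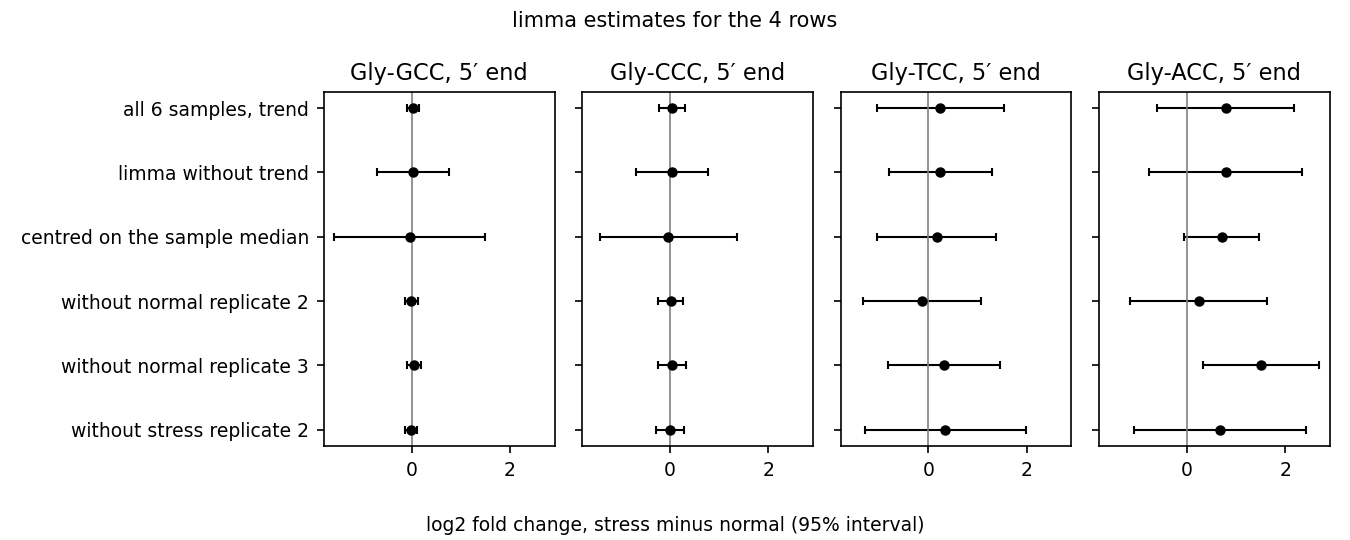
log2 fold change (stress minus normal, horizontal axis) with its 95% interval from limma for each glycine 5′ fragment, with all 6 samples and under 5 other settings (rows). The intervals include 0 except for ACC without normal replicate 3, and the intervals of GCC and CCC widen without the trend and after centring on the sample median.

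The glycine 5′ fragments together were the second largest isotype of the table. Their summed share was 32.2%, 29.7% and 31.7% in the normal and 31.0%, 33.9% and 31.0% in the stress replicates. Means were 31.2% ± 1.32 and 32.0% ± 1.67 (SD, n = 3 each), and the difference of 0.738 percentage points lay within the spread (exact permutation p = 0.7, two-sided; 3 samples against 3 cannot give less than 0.1). Glycine ranked second among the tRNA isotypes at the 5′ end in every sample, behind glutamate at 61.5% to 67.4% and ahead of valine at 0.910% to 2.31%. Glycine and glutamate together held 94.5% to 97.2% of the table, so a higher share of either leaves a lower share for the other. Normal replicate 2 had the lowest glycine and the highest glutamate share, and stress replicate 2 had the highest glycine and the lowest glutamate share.

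The ratio of summed glycine to summed glutamate 5′ fragments does not depend on the table total. In normal sperm it was 0.508, 0.441 and 0.504 (replicates 1 to 3), and in stress sperm 0.477, 0.551 and 0.471. The groups overlapped, and the mean log2 ratio differed by 0.044 (exact permutation p = 0.6, two-sided, n = 3 per group). With the glutamate 5′ rows taken out of the total, the glycine 5′ fragments held 85.1% to 91.3% of what was left.

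Within the glycine 5′ fragments the shares of GCC and CCC hardly moved, while those of TCC and ACC varied by 2.33 and 5.60 times between the lowest and the highest sample. GCC took 85.7%, 85.6% and 85.9% of them in normal sperm and 85.7%, 85.8% and 85.6% in stress sperm. CCC took 13.96% to 14.3%, TCC 0.0302% to 0.0703% and ACC 0.00927% to 0.0519%. The difference in the GCC share was −0.066 percentage points (exact permutation p = 0.7, two-sided, n = 3 per group). GCC and CCC together held 99.8959% to 99.96% of the glycine 5′ signal of a sample.

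The ratio of GCC to CCC lay in a narrow band. Normal sperm had 6.04, 5.97 and 6.16, and stress sperm had 6.02, 6.08 and 5.99 (replicates 1 to 3). Its coefficient of variation over the 6 samples was 1.14%, beside 4.45% for the summed glycine share and 6.90% for the ratio of tRNA-Glu-CTC to tRNA-Glu-TTC. On the log2 scale the group means differed by −0.0065 (exact permutation p = 0.7, two-sided, n = 3 per group). Among 45 pairs of 5′ rows at or above 1000 RPM in every sample, the GCC and CCC pair had the steadiest log2 ratio, with an SD of 0.016. The pair of tRNA-Val-CAC and tRNA-Val-AAC came next at 0.049, and the 2 glutamate fragments followed at 0.098.

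**Figure D3:**
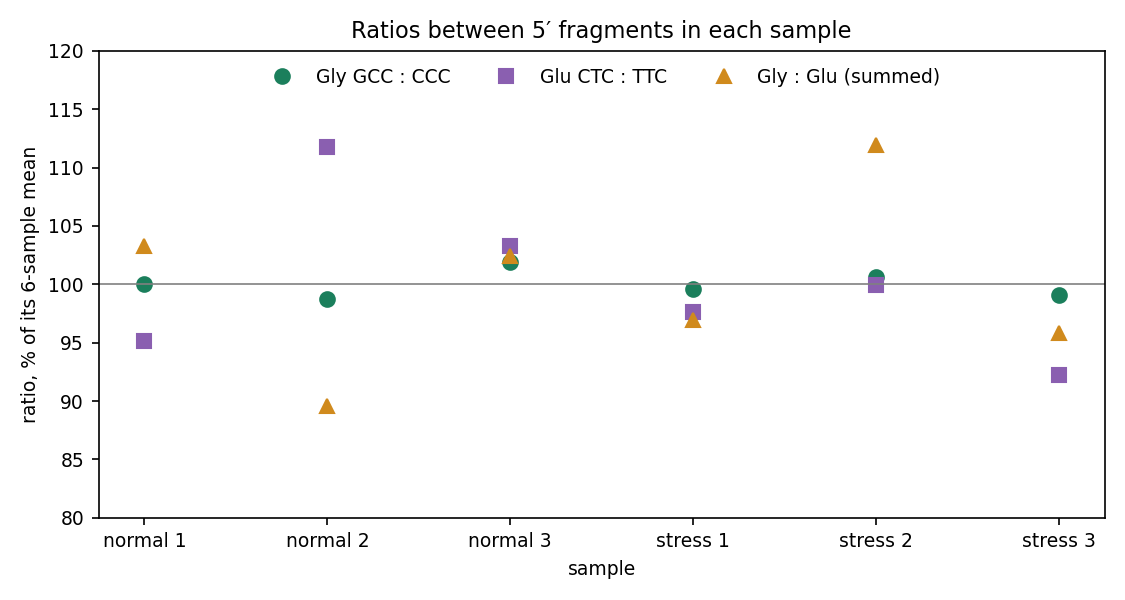
Ratio of GCC to CCC glycine 5′ fragments, of CTC to TTC glutamate 5′ fragments and of summed glycine to summed glutamate 5′ fragments in each of the 6 samples (horizontal axis), each as percent of its own mean over the samples. The GCC to CCC ratio, with a coefficient of variation of 1.14%, stays nearest to the line at 100%.

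The fractional parts of the GCC and CCC rows completed each other in every sample. Divided by the estimated worth of 1 read, the GCC row came to 559784.58, 595492.92 and 312792.04 reads in the normal and 635283.57, 530542.10 and 730735.63 reads in the stress replicates. The CCC row came to 92619.42, 99793.08 and 50804.96 reads in the normal and 105582.43, 87254.90 and 122033.37 reads in the stress replicates. Neither row was a whole number in any sample, within 0.005 reads. Their sum was whole in 6 of 6 samples, at 652404, 695286 and 363597 reads in the normal and 740866, 617797 and 852769 reads in the stress replicates, with a largest distance from a whole number of 0.0004 reads. Of 26 rows of 5′ ends that were fractional in all 6 samples, and their 325 pairs, this was the 1 pair whose sum was whole in all 6. Next came 1 other pair, with a whole sum in 5 samples.

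The sum of the GCC and ACC rows was whole in 0 of 6 samples, and so was the sum of the 2 glutamate rows. The TCC row by itself was whole in 4 of 6 samples and the ACC row in 0 of 6. The fractional reads of GCC and CCC thus added up to whole reads within this pair of rows. How the authors divided reads that match both tRNAs is not given in the sources used here, and the share of such reads cannot be read from the table. The separate levels of GCC and CCC, and their steady ratio, are uncertain for that reason, while a division of reads between them leaves their sum as it is. The ACC 5′ and 3′ rows, both glycine CCA rows and both glutamate 5′ rows were also fractional in all 6 samples. Their levels and ratios may thus hold divided reads too and carry the same uncertainty.

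The other ends of the same tRNAs were measured at far lower levels, in 4 rows of 3′ ends and 2 rows of CCA ends. Of all glycine signal, 99.9% to 99.97% lay in the 5′ rows. The GCC 5′ fragment was 11072 to 33083 times as abundant as the GCC 3′ fragment, and the CCC 5′ fragment was 327.3 to 875.4 times as abundant as the CCC 3′ fragment. These are RPM of separate rows whose read lengths the table does not give. The GCC 3′ row rests on 18 to 57.38 estimated reads per sample, and both ratios carry the uncertain division of reads between GCC and CCC.

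At the 3′ end the order of GCC and CCC was the reverse of that at the 5′ end. The CCC 3′ fragment stood at 139.8, 48.7 and 134.8 RPM in the normal and 115.7, 116.7 and 88.9 RPM in the stress replicates. The GCC 3′ fragment stood at 18.8, 7.69 and 16.6 RPM in the normal and 24.0, 22.5 and 11.2 RPM in the stress replicates. CCC exceeded GCC by 4.82 to 8.12 times at the 3′ end and by 2.09 to 3.68 times at the CCA end, in 6 of 6 samples each. In estimated reads, both 3′ rows were whole by themselves in 3 samples; in the other 3 samples they were fractional and their sum was whole. At the CCA end the sum was whole in 0 of 6 samples.

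The glycine CCA ends were most abundant in normal replicate 3. The same held for the CCA ends of all isotypes, at 0.0917% of the table in that sample against 0.0385% to 0.0833% in the others. The CCC CCA end stood at 20.2, 30.7 and 124.5 RPM in the normal and 44.5, 51.4 and 31.4 RPM in the stress replicates. The GCC CCA end stood at 7.40, 14.7 and 41.7 RPM in the normal and 12.1, 24.2 and 10.98 RPM in the stress replicates. The ACC 3′ fragment stayed at 0.272 to 1.80 RPM, and the TCC 3′ fragment was listed at 0 in normal replicates 1 and 3 and stress replicate 3 and reached 0.855 RPM in normal replicate 2. None of the 5 tested glycine rows of other ends passed in limma (adjusted p = 0.84 to 0.97), and the TCC 3′ row was too low to be tested.

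The balance of 5′ to other ends did not separate the groups. Summed glycine 5′ fragments exceeded summed glycine 3′ fragments by 2019, 5164 and 2068 times in normal and 2205, 2391 and 3084 times in stress sperm, and normal replicate 2 had the highest ratio. On the log2 scale the means differed by −0.14 (exact permutation p = 1.0, two-sided, n = 3 per group). The ratio to CCA ends was 11700, 6550 and 1904 in the normal and 5481, 4479 and 7302 in the stress replicates (difference of log2 means 0.099, exact permutation p = 0.9, two-sided, n = 3 per group). Normal replicates 1 and 3 held the extremes of that ratio. Over the 6 exact tests of shares and ratios, every adjusted p was 1.0.

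**Figure D4:**
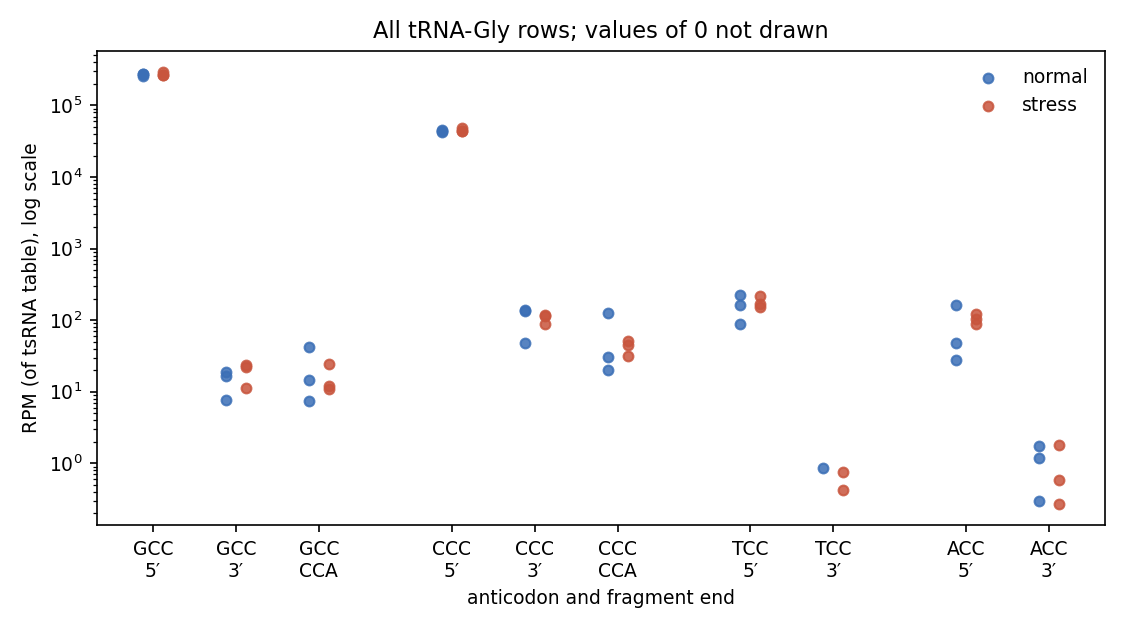
RPM on a log scale (vertical axis) of all glycine rows by anticodon and fragment end (horizontal axis), with a point per sample in blue for normal and red for stress. The GCC row leads at the 5′ end, the CCC row leads at the 3′ and CCA ends, and the 3 values of 0 of the TCC 3′ row are not drawn.

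The number of genes per anticodon does not give the order of the fragment rows. RefSeq lists 28 nuclear tRNA-Gly genes in mouse, 14 for GCC, 6 for CCC, 7 for TCC and 1 for ACC, and all 4 anticodons of the table were matched by gene symbol. The median level per gene was 19203 RPM for GCC and 7372 RPM for CCC, beside 23.7 RPM for TCC and 96.8 RPM for ACC. TCC, with 7 genes against 6 for CCC, was thus far below it both as a row and per gene. The levels of GCC, CCC and ACC used here carry the uncertainty of how reads were divided between rows. The genes of GCC and CCC are 71 bases long, those of TCC 72 and that of ACC 74. The gene nearest to a TCC gene was a tRNA-Glu-CTC gene for 5 of 7 TCC genes, among annotated tRNA genes.

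The glycine fragments differed in how much they varied over the 6 samples. By the SD of log2(RPM + 1), CCC (0.056) and GCC (0.065) were the second and the third steadiest of the 44 tested 5′ rows, between tRNA-Glu-CTC (0.052) and tRNA-Glu-TTC (0.086). The median row had an SD of 0.64. TCC (0.47) lay in place 10 and ACC (0.94) in place 37 of the 44. The glycine and glutamate 5′ rows held 94.5% to 97.2% of a table scaled to a fixed total. The part of that scaling, and of depth, in the steadiness of the most abundant rows was not tested.

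The row most like GCC over the 6 samples was CCC, with a Pearson r of 0.97 on the log2 scale, as a description over samples that share the division of reads. Next came tRNA-Ser-GGA_5_end (0.90), tRNA-Leu-TAG_3_end (0.88), tRNA-Trp-CCA_3_end (0.87) and tRNA-Ser-CGA_CCA_end (0.86). For CCC, after GCC, they were tRNA-Leu-TAG_3_end (0.88), tRNA-Arg-TCG_5_end (0.85), tRNA-Ser-GGA_5_end (0.85) and tRNA-SeC-TCA_CCA_end (0.82). Apart from tRNA-Trp-CCA_3_end, which reached 28.5 RPM, these rows stayed at or below 3.84 RPM, a level of few reads. All are shares of the same 6 tables.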

How the data were processed

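Small RNA of 6 sperm samples was analysed. Libraries were built from TRIzol-extracted RNA with a TruSeq kit of Illumina, per the labels' protocols, and the submitters' processing notes name Bowtie. The sources used here do not give its version, the genome build, the tRNA annotation, the read filters or the rule for reads that match several tRNAs. The tsRNA values are RPM, scaled by the authors to 1000000 over the 124 rows of that table. The deposited miRNA table holds expected counts (1010203 to 3067208 per sample), used here as CPM for the marker levels. The piRNA table was not used.

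Groups and replicate numbers came from the sample titles. The whole tsRNA table was fitted with limma 3.58.1 (trend) in R 4.3.3 on log2(RPM + 1), keeping rows that reached 1 RPM in 3 or more of the 6 samples, with Benjamini-Hochberg adjustment over 87 rows and a threshold of 0.05. These fold changes understate changes of rows near 1 RPM. In this fit the prior degrees of freedom were infinite. Each SE, interval and p-value of this fit thus used the spread of the fitted trend over the tested rows and not the row's own spread. This does not hold for every other setting. Without the trend the SE was 0.31 for GCC and 0.65 for ACC, so a row's own spread had weight there. Shares and ratios were tested with an exact two-sided permutation test (scipy 1.17.1). The worth of 1 read was estimated as the largest step at which at least 20 values of up to 300 reads came out whole within 0.001; 26 to 31 values per sample did, a minority of the values, so depth is an estimate, and a smaller step would mean more reads. A step 2 times smaller made at least as many values whole in normal replicate 3 and the 3 stress replicates. The limit of 300 reads leaves values out at a smaller step, so the counts cannot settle the depth of normal replicates 1 and 2. Gene counts came from RefSeq (GRCm38.p6). The limma fit and the step search were run on simulated data, as a check of the code alone. The step check also accepts a step that is a whole number of times too small, so it cannot settle the depth. The simulated rows shared the same spread and held large changes, unlike the glycine rows. Named rows were all tRNA-Gly rows, the tRNA-Glu 5′ rows, the isotype sums and the 5 rows most correlated with GCC and with CCC. Alternatives were other pseudocounts, filters, centring, no trend, a block on replicate numbers and leaving out each sample; the check of sums for whole reads was added after the values were seen. The members and lists were chosen with earlier results of these data known.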

Additional observations from a re-analysis of the deposited data

How the results depend on the processing

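No setting called any of the 4 glycine 5′ fragments in limma. The number of called rows in the table was 0 under every setting with all samples, and 0 to 2 over the fits that left out 1 sample; it was 2 without normal replicate 3, neither of them a glycine row. With log2 values centred on the sample median, GCC turned to −0.042 and CCC to −0.035. Leaving out 1 sample at a time gave log2 fold changes of −0.012 to 0.056 for GCC, 0.00096 to 0.064 for CCC, −0.12 to 0.54 for TCC and 0.24 to 1.51 for ACC. It gave differences of −0.227 to 1.26 percentage points for the summed glycine 5′ share and −0.139 to 0.0230 percentage points for the GCC share. Log2 differences lay at −0.017 to 0.0055 for GCC to CCC, −0.027 to 0.085 for glycine to glutamate, −0.37 to 0.31 for 5′ to 3′ ends and −0.63 to 0.68 for 5′ to CCA ends. The directions of all these but CCC and ACC thus depend on single samples, and the cause was not tested. Other pseudocounts, filters and denominators kept every direction.

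The replicate numbers are shared by the groups, but same-numbered samples did not deviate together (r = 0.19, −0.36 and −0.23 over 87 rows). A replicate block gave 0 calls, as without it, with adjusted p-values of 0.91 for GCC and CCC in limma and exact sign-flip permutation p-values of 0.75 to 1.0 for shares and ratios (n = 3 pairs; the smallest possible is 0.25). Estimated reads fell as low as 190 for TCC and 64.5 for ACC in a sample, and lower still in rows of other glycine ends (18 for the GCC 3′ end, 14.98 for the GCC CCA end); the part of depth in their spread was not tested.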
